A study of Mus musculus with 2 samples.

Results

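The transcripts described here are the Fc gamma receptors of the mouse and the signalling genes around them, measured in kidney from mice fed adenine with or without HMPA. They were chosen by name, as 10 genes of the 26484 on the array: the receptors Fcgr1, Fcgr2b, Fcgr3 and Fcgr4, the adaptors Fcer1g and Tyrobp, the receptor Trem2, the kinase Syk, the transcription factor Spi1 and the phosphatase Ptprc. On each array they were read by 37 spots, which belong to 19 probes. All 19 probes were bright enough to keep in at least 1 condition, and 16 were well above background in both conditions on both arrays. With HMPA each of these 16 read below adenine alone on both arrays. So did the remaining probes, of Spi1 and Ptprc, but they passed the filter only through adenine alone, which favours a lower ratio. Of the 10 genes, 7 were at least 2-fold lower by the rule given below, which 7.72% of all measured genes met in that direction. The 10 genes were chosen with earlier results of these data known, so this comparison describes them and tests nothing.

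Kidney RNA came from male CD-1 mice, 7 weeks old at the start, that ate an AIN-93G diet for 1 week. Both conditions received adenine at 2 g per kg of diet (0.2% by weight), which forms crystals in the tubules and injures the kidney. One condition received adenine alone, and the other also received 2% HMPA by weight, the phenolic acid 3-(4-hydroxy-3-methoxyphenyl)propionic acid. The sample titles give instead an age of 12 weeks and mention 5 mice, with no word on pooling. Both conditions were hybridised together on 2 dual-colour arrays, with HMPA in Cy5 on array 1 and in Cy3 on array 2. Separate animals or extracts are not named for the arrays, which were therefore read as a dye swap of 1 RNA sample per condition, and no p-value could be computed. The value after ± is thus how far each array lay from the mean of both, and holds no spread between animals. No kidney without adenine was on the arrays, so the ratios do not show what adenine itself changed. The comparison addresses which transcripts of immune receptor signalling differ when HMPA is added to this injury.

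Fc gamma receptors bind the constant part of IgG and let phagocytes recognise antibody-coated particles and immune complexes. The activating receptors have no signalling motif of their own that can recruit Syk in the mouse. They rest on the Fcer1g chain, whose cytoplasmic tail carries an immunoreceptor tyrosine-based activation motif, or ITAM. Src family kinases phosphorylate the ITAM, the kinase Syk docks on it, and the signal runs on to calcium release, actin remodelling and cytokine genes. Tyrobp, also called DAP12, does the same for TREM2 and many other myeloid receptors. Fcgr2b carries an inhibitory motif, or ITIM, and opposes the activating receptors. In the kidney these genes are mainly known from resident and infiltrating macrophages, dendritic cells and neutrophils. In bulk RNA, fewer cells of a type and less RNA per cell cannot be told apart.

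A gene was counted as lower or higher when its mean ratio over both arrays was at least 2-fold and each array gave at least 1.5-fold in the same direction. Over the whole array this rule took in 16698 measured genes, 1289 (7.72%) of them lower with HMPA and 1109 (6.64%) higher. Higher genes made up 46.2% of these, and 27.5% with median centring in place of loess, which shifted the all-gene median to −0.22. The dye contrast, in which the conditions cancel, gave 0. Of the 10 Fc receptor and ITAM genes, 7 were lower by it and none was higher (0 of 10). At least 4-fold lower were 5 of them (Trem2, Fcgr3, Fcgr1, Tyrobp and Fcer1g), against 1.35% of all measured genes. Their median log2 ratio was −1.71 (−1.80 on array 1 and −1.64 on array 2), while the median of all measured genes was −0.037. The arrays lay between 0.016 and 0.29 from the mean for these genes, with a median of 0.062, against 0.11 for all genes. Signals below are normalised signals in arbitrary units for one gene's own probe, and cannot be set against those of another gene.

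**Figure D1:**
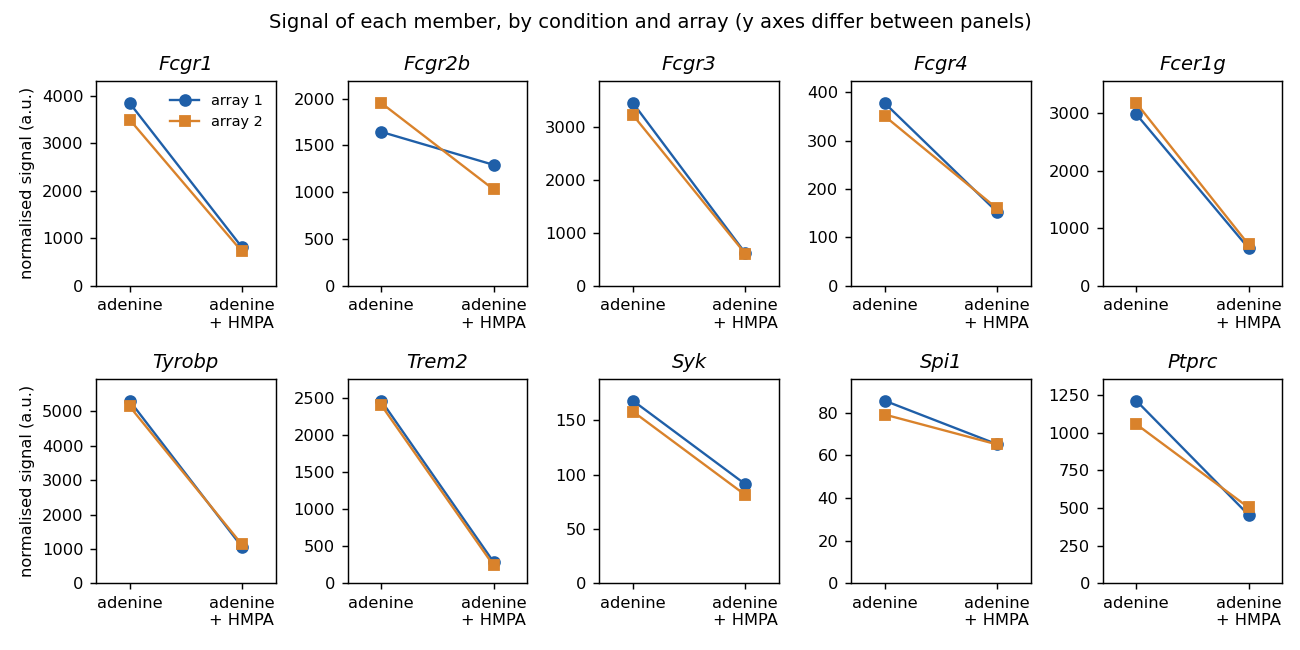
Normalised signal (arbitrary units, linear axes from 0, a separate scale in each panel) of the brightest kept probe of each of the 10 genes, with adenine alone and with adenine and HMPA. Blue circles are array 1 and orange squares array 2, and lines join the conditions within an array. All 10 genes were lower with HMPA on both arrays, from Trem2 (9.19-fold) to Spi1 (1.26-fold). The Spi1 probe passed the filter only through adenine alone, which favours a lower ratio.

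Fcgr1, the high-affinity receptor that binds monomeric IgG2a, was 4.79-fold lower with HMPA. Its normalised signal with adenine alone was 3853 on array 1 and 3503 on array 2, and with HMPA it was 813 and 723. The log2 ratios of −2.24 and −2.28 gave a mean of −2.26 ± 0.016, the closest match between the arrays among the 10 genes. A second probe, designed to a cDNA of another mouse strain, gave −2.13 ± 0.042. The brighter probe lies on chr3:96088140-96088199 (minus strand, mouse build mm9), and the other on chr3:96088398-96088461. The probes were not placed in exons or UTRs, for want of an annotation of that build.

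Fcgr3 encodes the low-affinity activating receptor of macrophages, neutrophils and NK cells. Its brighter probe read 3458 and 3230 with adenine alone and 620 and 608 with HMPA, and was 5.44-fold lower (−2.44 ± 0.035). The other Fcgr3 probe read 596 and 713 with adenine alone and 315 and 295 with HMPA. It was lower on both arrays too, but by less (−0.92 on array 1 and −1.27 on array 2, mean −1.10 ± 0.18). The probes were thus 1.35 apart on the log2 scale. Of 6031 genes with more than 1 kept probe, 3.37% had a wider spread, and the median spread was 0.29. Both sequences are shown because they give different sizes for the same gene. The probe with the larger ratio was designed to an old cDNA record (chr1:172981647-172981722, minus strand, mm9; its first 30 of 60 bases are given), and the other to the RefSeq transcript (chr1:172984129-172984188).
Fcgr3 probe with mean log2 ratio −2.44: ttacaagcaggccgggatgtttggttcttc
Fcgr3 probe with mean log2 ratio −1.10: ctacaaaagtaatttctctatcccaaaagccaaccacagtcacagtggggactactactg
Fcgr2b and Fcgr3 are close relatives whose IgG-binding parts are much alike, so a probe in that part may read both. Whether the second Fcgr3 probe does was not tested.

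Fcgr4, the activating receptor for IgG2a and IgG2b on neutrophils and monocytes, was dimmer on its only probe. Its signal was 378 and 351 with adenine alone and 153 and 160 with HMPA. The mean log2 ratio was −1.22 ± 0.085, which is 2.32-fold lower, and it met the rule. The probe lies on chr1:172959738-172959797 (plus strand, mm9), between the positions of the Fcgr2b and Fcgr3 probes on the same chromosome.

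Fcgr2b, the inhibitory receptor, was the one Fc gamma receptor that did not meet the rule. Its brightest probe read 1644 and 1953 with adenine alone and 1292 and 1030 with HMPA. The arrays differed most here (−0.35 on array 1 and −0.92 on array 2, mean −0.64 ± 0.29, 1.55-fold). A second probe was printed 10 times on each array and gave a tighter reading. It read 1726 and 1778 with adenine alone and 1004 and 1019 with HMPA, with log2 ratios of −0.78 and −0.80 (mean −0.79 ± 0.011). Over its 10 spots the SD was 0.22 on array 1 and 0.23 on array 2, and the single spots ran from −1.12 to −0.45 and from −1.15 to −0.52. The third probe gave −0.53 ± 0.027, and all 3 probes lie between chr1:172890988-172891047 and chr1:172895833-172895892 (minus strand, mm9). All 3 were lower on both arrays without reaching 2-fold in the mean.

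By the brightest probe of each gene, the activating receptors and their adaptor were further below adenine alone than the inhibitory receptor was on each array. Against the Fcgr2b probe of 10 spots, the log2 ratio of Fcgr3 was lower by 1.65, with the arrays 0.046 from that mean. The Fcgr1 ratio minus the Fcgr2b ratio was −1.47 ± 0.0058, and the Fcer1g difference was −1.38 ± 0.032. The Fcgr4 difference was the smallest (−0.42 ± 0.096). Against the brightest Fcgr2b probe these differences were −1.81 ± 0.32, −1.63 ± 0.27, −1.53 ± 0.31 and −0.58 ± 0.37 in the same order, negative on each array. The size for Fcgr3 rests on the probe taken. Its second probe differed from the Fcgr2b probe of 10 spots by −0.14 on array 1 and −0.47 on array 2 (mean −0.30 ± 0.17). These are differences between ratios of 1 RNA sample per condition and were not tested over animals.

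Fcer1g, the gamma chain with the ITAM, stood close to its receptors. The signal was 2987 and 3182 with adenine alone and 654 and 718 with HMPA, and the gene was 4.50-fold lower (−2.17 ± 0.021). A second probe, designed to a mast cell cDNA of the IgE receptor gamma subunit, gave −1.82 ± 0.0049. They overlap on the genome, at chr1:173159794-173159853 and chr1:173159846-173159918 (minus strand, mm9), and share a few bases there. The gamma chain also serves the IgE receptor, but the other chains of that receptor gave little signal. Fcer1a read between 65.3 and 69.9 in the 4 readings, with a log2 ratio of 0.053 ± 0.032, and Ms4a2 was not well above background in any.

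Tyrobp, the DAP12 adaptor, was 4.76-fold lower. Its only probe read 5304 and 5139 with adenine alone and 1062 and 1131 with HMPA (log2 ratios −2.32 and −2.18, mean −2.25 ± 0.068). The array values of Tyrobp overlapped those of Fcgr1 and of Fcer1g, so it cannot be placed above or below either, while Fcgr1 lay below Fcer1g on each array. The Tyrobp probe spans 1728 bases of the genome (chr7:31200651-31202378, plus strand, mm9) with a length of 60, so it crosses at least 1 splice junction. Its sequence is shown because it alone stands for the adaptor.
Tyrobp probe: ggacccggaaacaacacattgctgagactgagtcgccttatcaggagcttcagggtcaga

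Trem2, a lipid and apolipoprotein receptor of macrophages that signals through Tyrobp, was the lowest of the 10 genes. Its brighter probe read 2461 and 2401 with adenine alone and 290 and 242 with HMPA, which is 9.19-fold lower (log2 ratios −3.09 and −3.31, mean −3.20 ± 0.11). Counted from the lowest ratio, it took place 14 among 16698 measured genes. The second probe was dimmer in both conditions, at 254 and 263 with adenine alone and 99.7 and 77.3 with HMPA, and gave −1.56 ± 0.21. The probes differed by 1.64 on the log2 scale, and 1.77% of the genes with more than 1 kept probe spread more. With Feature Extraction's own ratios, which subtract the background and add no offset, the dimmer probe was −2.75 and the brighter one −3.51, so their distance was smaller there. Both were designed to the same transcript, at chr17:48491522-48491581 and chr17:48491220-48491356 (plus strand, mm9), and their first 30 bases are shown since they give the widest spread.
Trem2 probe with mean log2 ratio −3.20: tgttgagtggggaagacagctggatggttg
Trem2 probe with mean log2 ratio −1.56: gccaagatgctgggcaccaacttcagatcc

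**Figure D2:**
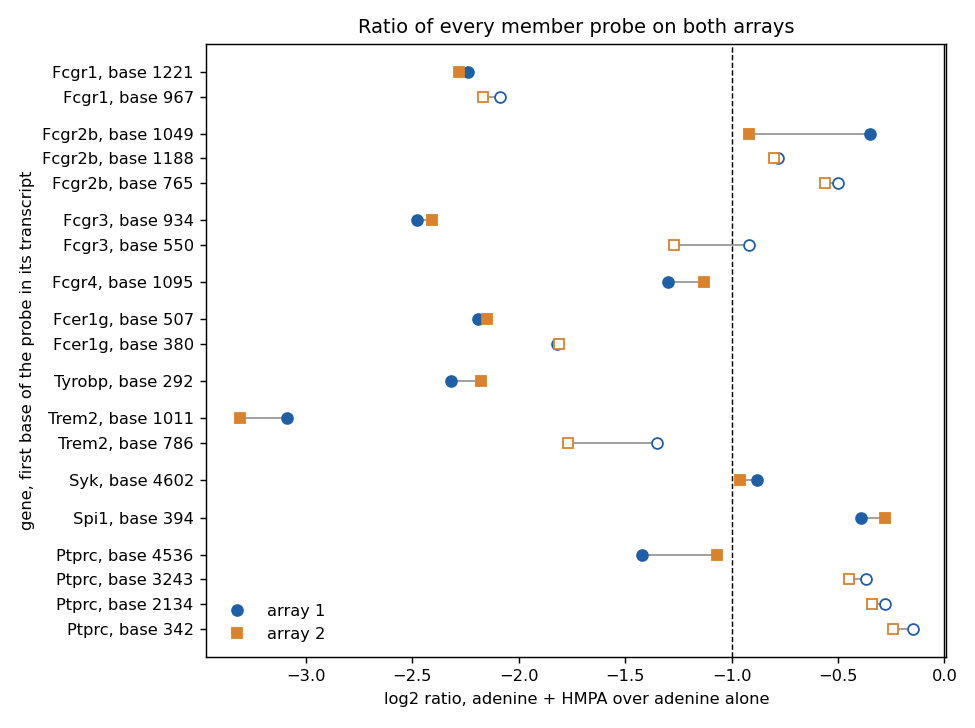
Log2 ratio of HMPA over adenine alone for each of the 19 probes (rows, by gene and by the first base of the probe in its own transcript record), on array 1 (blue circles) and array 2 (orange squares). Filled symbols mark the probe that stands for the gene, the dashed line marks 2-fold lower, and all probes lie below 0, with 11 of the 19 meeting the rule. The Spi1 probe and the Ptprc probes at −0.31 and −0.19 passed the filter only through adenine alone, which favours a value below 0.

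Syk, the kinase that docks on the phosphorylated ITAM, gave a log2 ratio of −0.92 ± 0.041 (1.89-fold) and did not meet the rule. The signal was low, at 168 and 158 with adenine alone and 91.3 and 81.4 with HMPA, and these values include the offset of 50 added before the ratio. The size of the Syk ratio moved with the processing. With an offset of 16 it was −1.34 and without background correction −1.19. Feature Extraction's own ratios gave −1.84, and median centring in place of loess gave −1.19. Syk met the rule under each of these. The direction was the same on each array (−0.88 and −0.96). The probe lies on chr13:52743661-52743720 (plus strand, mm9).

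Spi1 encodes PU.1, the ETS transcription factor that myeloid cells need and that activates many Fc receptor and myeloid genes. It gave the smallest ratio of the 10 genes, −0.34 ± 0.055 (1.26-fold). Its probe read 85.7 and 79.2 with adenine alone and 65.3 and 65.2 with HMPA, close to the offset. The raw spot signal with HMPA on array 1 was 26.2 over a background of 23, and the probe was well above background with HMPA on 1 of the 2 arrays. With Feature Extraction's own ratios Spi1 was −1.74 and met the rule. At this brightness the size of a Spi1 difference was not measurable with any firmness. The probe spans 13788 bases (chr2:90939665-90953452, plus strand, mm9), so it too crosses at least 1 splice junction.
Spi1 probe: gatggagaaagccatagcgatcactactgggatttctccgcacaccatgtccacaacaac

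Ptprc encodes CD45, the phosphatase on all leukocytes that keeps Src family kinases ready to act. The brightest of its 4 probes read 1213 and 1057 with adenine alone and 455 and 504 with HMPA, and was 2.36-fold lower (−1.24 ± 0.17). This probe was printed 10 times, and 9 of its spots on array 1 and 7 on array 2 were free of outlier marks. The spots ran from −1.81 to −1.07 on array 1 (SD 0.23) and from −1.21 to −0.92 on array 2 (SD 0.12). The other 3 probes were dim and read −0.41, −0.31 and −0.19. For the probes at −0.31 and −0.19, HMPA was not well above background on either array, which allows only bounds of at least 1.24-fold and at least 1.14-fold lower. Bounds are the bright condition's mean against the higher of the array's lowest signal above background and the probe's own signal. With Feature Extraction's own ratios these 2 probes were −3.09 and −1.95, and the probe at −0.41 was −0.88. With the mean over all 4 probes Ptprc was −0.54 and no longer met the rule. The bright probe lies on chr1:139960089-139960148 (minus strand, mm9), and the probe at −0.31 was designed to another transcript record than the other 3. The sequence of the probe at −0.41 (chr1:139962691-139962750) is set beside the first 30 bases of the bright probe, since their ratios differ.
Ptprc probe with mean log2 ratio −1.24: ttatgggaaatgtaaaattgactatggcca
Ptprc probe with mean log2 ratio −0.41: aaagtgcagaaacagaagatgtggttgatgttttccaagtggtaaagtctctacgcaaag

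**Figure D3:**
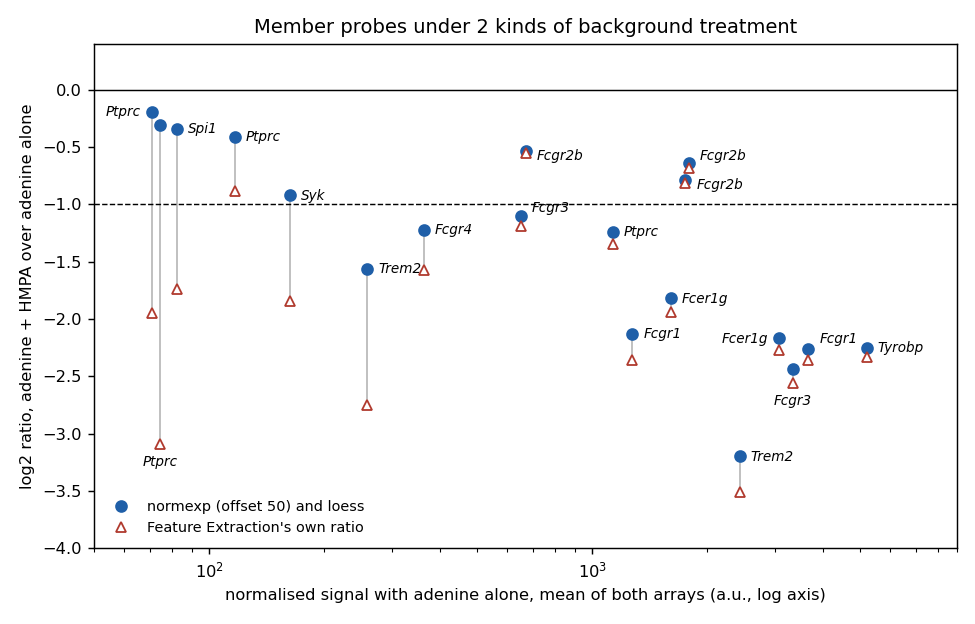
Log2 ratio of HMPA over adenine alone (mean of both arrays) for the 19 probes, against the probe's normalised signal with adenine alone (geometric mean of both arrays, arbitrary units, log axis). Blue circles used normexp with an offset of 50 and loess, red triangles are Feature Extraction's own ratios, grey lines join the values of a probe, and the dashed line marks 2-fold lower. The longest lines belong to dim probes, among them the Ptprc probes at −0.31 (−3.09) and −0.19 (−1.95), Spi1 (−0.34 and −1.74), Syk (−0.92 and −1.84) and the second Trem2 probe (−1.56 and −2.75), and short for Tyrobp (−2.25 and −2.33).

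In order from the lowest ratio under the processing used here, the genes were Trem2, Fcgr3, Fcgr1, Tyrobp, Fcer1g, Ptprc, Fcgr4, Syk, Fcgr2b and Spi1. Their ranks among all measured genes were 14, 93, 132, 135, 161, 861, 894, 1513, 2535 and 4415. Array values overlapped between these neighbours: Fcgr1 and Tyrobp, Tyrobp and Fcer1g, Ptprc and Fcgr4, Syk and Fcgr2b, and Fcgr2b and Spi1. Elsewhere in this order both arrays of a gene lay below both of the next. Across the 9 other treatments of the data, Trem2 lay between −3.51 and −2.38, Fcgr3 between −2.68 and −1.77, Fcgr1 between −2.49 and −2.19, Tyrobp between −2.44 and −2.18 and Fcer1g between −2.41 and −1.99. Ptprc lay between −1.54 and −0.54, Fcgr4 between −1.57 and −1.13, Syk between −1.84 and −0.88, Fcgr2b between −0.92 and −0.35 and Spi1 between −1.74 and −0.28. The order of these 5 therefore depends on the processing: with Feature Extraction's own ratios Syk (−1.84) and Spi1 (−1.74) were below Fcgr4 (−1.57) and Ptprc (−1.35). Of all treatments, averaging a gene's probes brought the ratios of Trem2 (−2.38) and Fcgr3 (−1.77) nearest to 0, and both still met the rule. The order of the first 5 genes changed there too. Fcgr3 was then less low than Tyrobp (−2.25), Fcgr1 (−2.19) and Fcer1g (−1.99). The rule took in 9 of the 10 genes as lower with Feature Extraction's own ratios (14.7% of all genes), leaving out Fcgr2b. It took in 8 with an offset of 16 (9.94% of all), without background correction (9.31%) and with median centring (11.8%), Syk being the added one. Averaging the probes left 6 (6.1% of all), without Ptprc.

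PU.1 binds purine-rich sites with the letters GAGGAA. RefSeq promoter windows of mouse build GRCm38.p6, from 250 bases before the start of a transcript to 50 after, were matched for 8 of the 10 genes, with 11 windows in all. GAGGAA on either strand stood in 7 of the 11 windows, from 6 genes (Fcgr1, Fcgr3, Fcgr4, Trem2, Syk and Ptprc), and in 28.3% of all 32851 windows of this length. The windows of Fcgr3 overlap almost fully and hold the same match, which is counted in each. The longer form GAGGAAGT, which overlaps GAGGAA, stood in the Fcgr4 window, against 3.20% of all windows. No match was found in the windows of Fcgr2b and Fcer1g. The windows printed show both outcomes on either side of the rule of size. Fcgr1, Fcgr3, Fcgr4 and Trem2 met the rule and hold a match, as does Ptprc in 1 of 2 windows (not printed), while Fcer1g met the rule and holds none. Syk did not meet the rule and holds a match in 1 of 2 windows, and Fcgr2b did not meet it and holds none. Capitals mark the matches to GAGGAA, which reads TTCCTC where it lies on the opposite strand.
Fcgr1, chr3:96293920-96294219, minus strand: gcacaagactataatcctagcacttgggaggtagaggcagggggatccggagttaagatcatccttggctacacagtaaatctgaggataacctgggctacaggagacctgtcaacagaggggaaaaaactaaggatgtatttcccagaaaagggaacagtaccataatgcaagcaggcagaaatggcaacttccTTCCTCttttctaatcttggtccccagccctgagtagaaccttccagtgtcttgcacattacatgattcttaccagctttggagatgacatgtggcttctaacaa
Fcgr3, chr1:171059345-171059644, minus strand: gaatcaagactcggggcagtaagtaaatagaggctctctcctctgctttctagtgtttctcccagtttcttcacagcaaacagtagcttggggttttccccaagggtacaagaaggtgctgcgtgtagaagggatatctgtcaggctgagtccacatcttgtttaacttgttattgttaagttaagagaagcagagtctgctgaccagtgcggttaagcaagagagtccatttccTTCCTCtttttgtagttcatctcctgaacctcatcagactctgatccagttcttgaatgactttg
Fcgr4, chr1:171018676-171018975, plus strand: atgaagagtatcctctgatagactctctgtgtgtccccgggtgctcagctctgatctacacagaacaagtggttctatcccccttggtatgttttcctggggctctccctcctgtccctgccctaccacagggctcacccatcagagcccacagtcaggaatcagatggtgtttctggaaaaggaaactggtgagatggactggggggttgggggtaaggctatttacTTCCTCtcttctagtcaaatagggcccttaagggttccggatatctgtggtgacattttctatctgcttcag
Trem2, chr17:48346151-48346450, plus strand: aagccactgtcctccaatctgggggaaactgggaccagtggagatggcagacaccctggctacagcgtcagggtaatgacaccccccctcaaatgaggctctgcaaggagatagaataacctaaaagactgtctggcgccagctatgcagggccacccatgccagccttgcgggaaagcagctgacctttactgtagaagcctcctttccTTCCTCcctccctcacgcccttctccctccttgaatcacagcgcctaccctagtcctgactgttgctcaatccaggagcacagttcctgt
Fcer1g, chr1:171234300-171234599, minus strand: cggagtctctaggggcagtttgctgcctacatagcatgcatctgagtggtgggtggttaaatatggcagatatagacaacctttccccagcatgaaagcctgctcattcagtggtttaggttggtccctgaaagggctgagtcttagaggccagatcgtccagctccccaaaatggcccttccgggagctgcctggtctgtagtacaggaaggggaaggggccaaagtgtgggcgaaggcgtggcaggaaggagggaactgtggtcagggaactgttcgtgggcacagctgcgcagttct
Syk, chr13:52596632-52596931, plus strand: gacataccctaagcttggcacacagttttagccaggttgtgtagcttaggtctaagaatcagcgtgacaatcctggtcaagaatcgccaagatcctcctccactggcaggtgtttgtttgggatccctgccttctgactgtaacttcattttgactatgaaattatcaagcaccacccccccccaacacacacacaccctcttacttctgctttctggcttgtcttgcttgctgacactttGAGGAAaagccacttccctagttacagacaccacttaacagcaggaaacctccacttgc
Fcgr2b, chr1:170976022-170976321, minus strand: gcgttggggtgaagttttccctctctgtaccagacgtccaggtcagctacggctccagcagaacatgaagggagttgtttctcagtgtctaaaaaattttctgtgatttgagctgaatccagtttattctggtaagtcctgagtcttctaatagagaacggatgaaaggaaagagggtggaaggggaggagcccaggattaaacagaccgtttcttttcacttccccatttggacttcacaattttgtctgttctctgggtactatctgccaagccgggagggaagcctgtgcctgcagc
The TTCCTC run begins 55 bases before the start in Fcgr1, 15 before it in Fcgr3, 22 before it in Fcgr4 and 40 before it in Trem2, and the GAGGAA run in Syk 9 before it. These are matches of letters in a window and say nothing of binding in these kidneys.

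Around the 10 genes, 8 lists of pathway genes held 185 further genes, of which 163 were measured. By the rule 63 of these (38.7%) were lower and 2 higher, with a median log2 ratio of −0.68, beside 7.72% lower and a median of −0.037 over all genes. The lists too were chosen with earlier results of these data known. Among 19 receptors that pair with ITAM adaptors or, as Clec7a does, carry a motif of their own, 4 were lower and 0 higher (median −0.37). The 4 were C-type lectin receptors of myeloid cells. Clec7a (dectin-1, a receptor for fungal glucan with a motif of its own) was −2.22 ± 0.012 and Clec5a, a partner of Tyrobp, −2.01 ± 0.075. Clec4n (dectin-2) at −1.96 ± 0.017 and Clec4e (Mincle) at −1.55 ± 0.13 both pair with Fcer1g (−2.59 and −3.04 with Feature Extraction's own ratios). With Feature Extraction's own ratios 11 of the 19 were lower (median −1.19), and averaged over its probes Clec5a was −0.75 and lost its call. Among 7 other Fc receptors and immunoglobulin partners, 0 met the rule in either direction (median −0.14). In that list Jchain, which joins IgA and IgM into polymers, was −0.81 ± 0.039, and Pigr, which carries them across epithelium, was −0.78 ± 0.22. Both met the rule with median centring, at −1.06 and −1.11.

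Of 37 kinases and adaptors that work below the ITAM, 9 were lower and 1 higher (median −0.50), and 14 were lower with Feature Extraction's own ratios. The Src family kinases Fgr (−1.47 ± 0.085) and Lyn (−1.32 ± 0.45) were lower, as was the adaptor Lcp2, also called SLP-76 (−1.44 ± 0.21). Lyn read −0.87 on array 1 and −1.76 on array 2, so array 1 alone fell short of 2-fold. Btk, a Tec family kinase, was −0.74 ± 0.059 and Plcg2, the phospholipase that makes the calcium signal, −0.55 ± 0.17. Neither met the rule, and Btk was −2.22 with Feature Extraction's own ratios and met it there. Card9, an adaptor of the C-type lectin receptors, was not measured here.

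Actin remodelling and phagocytosis gave 11 lower and 0 higher genes of 19 (median −1.18). The lowest were Arpc1b, a subunit of the Arp2/3 complex (−2.32 ± 0.26), Nckap1l, which makes up the blood cell form of the WAVE complex (−1.88 ± 0.095), Coro1a, an actin-binding coronin (−1.79 ± 0.21), and Arhgap25, a regulator of Rac in phagocytes (−1.72 ± 0.25). Arpc1b went from 27565 and 25358 with adenine alone to 6604 and 4253 with HMPA.

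Of 27 ITIM receptors and inhibitors of the pathway, 11 were lower, 0 higher and 16 neither (median −0.80, and −1.61 with Feature Extraction's own ratios). Pirb, the paired immunoglobulin-like receptor that binds MHC class I, was −2.49 ± 0.30, and its signal went from 6171 and 6130 to 1350 and 890. Cd300lf was −2.42 ± 0.39, the collagen receptor Lair1 −2.27 ± 0.0061 and Clec4a2 −2.05 ± 0.0066. Averaged over their probes Cd300lf was −1.42 and Lair1 −1.39, and both still met the rule. Of the phosphatases that ITIMs recruit, Inpp5d (SHIP1) was lower at −1.62 ± 0.058. Ptpn6 (SHP-1) was −0.63 ± 0.12 and did not meet the rule.

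Beside Ptprc, 6 of 13 genes of the CD45 family and its partners were lower and 0 higher. Their median of −1.13 rested more on array 2 (−1.46) than on array 1 (−0.51), and was −0.67 with probes averaged. The leukocyte surface genes Cd52 (−1.78 ± 0.033) and Cd53 (−1.75 ± 0.24), the phosphatase Ptpre (−1.60 ± 0.14) and the lysosomal gene Laptm5 (−1.57 ± 0.041) were the lowest. Of 23 relatives, partners and myeloid targets of PU.1, 12 were lower and 0 higher (median −1.11). Lysozyme (Lyz2) was −2.91 ± 0.098, Csf2rb, the shared beta chain of cytokine receptors, −2.0 ± 0.13, the transcription factor Cebpb −1.72 ± 0.30 and the lysosomal protein Cd68 −1.64 ± 0.27. Averaged over its probes Csf2rb was −0.62 and lost its call.

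Of 19 TREM2 ligands and genes of lipid-laden macrophages, 10 were lower and 1 higher (median −1.37, with medians of −1.13 on array 1 and −1.11 on array 2). Osteopontin (Spp1) was −3.55 ± 0.0036, apolipoprotein E (Apoe), a ligand of TREM2, −2.94 ± 0.12, the lysosomal glycoprotein Gpnmb −2.80 ± 0.24 (−4.37 with Feature Extraction's own ratios) and clusterin (Clu), another ligand, −2.09 ± 0.15. Spp1 and Clu are also made by injured tubule cells. Cd36, a scavenger receptor and fatty acid carrier, went the other way (2.07 ± 0.25), from 1020 and 970 with adenine alone to 3579 and 4848 with HMPA.

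**Figure D4:**
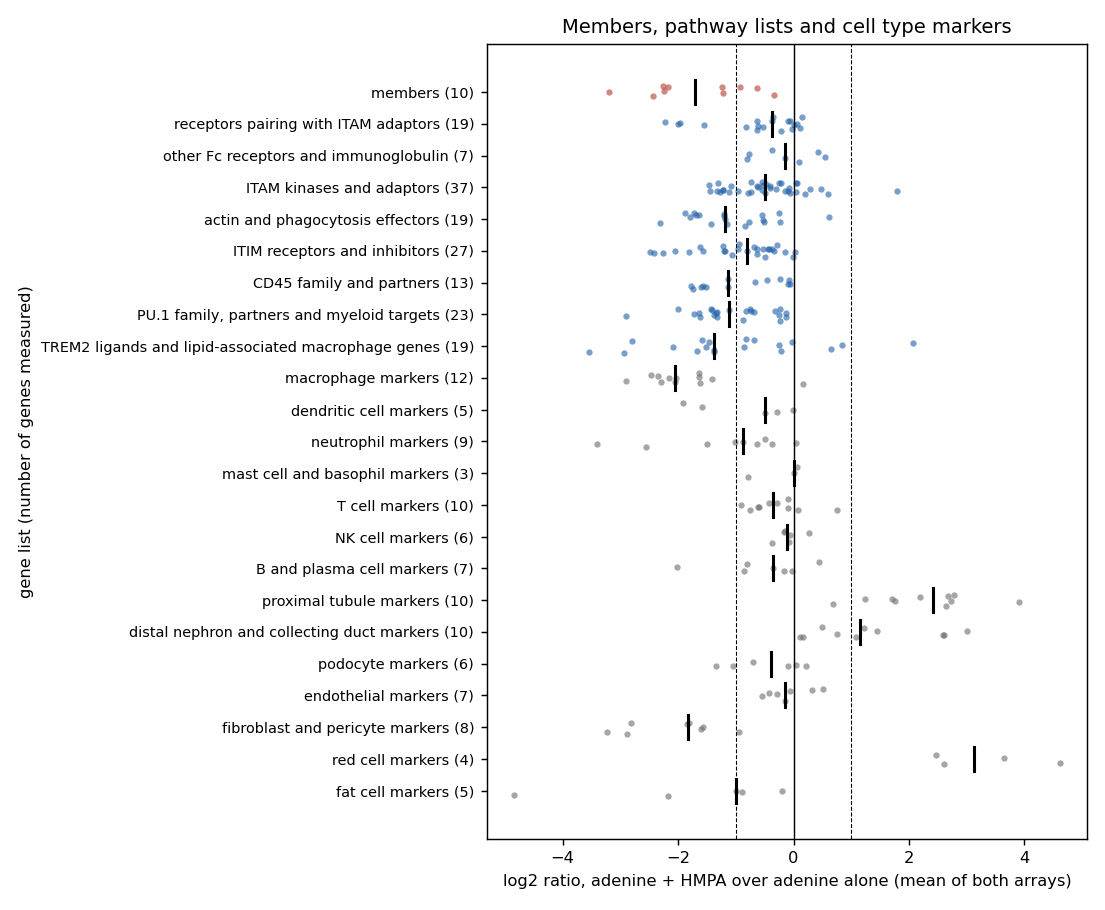
Log2 ratio of HMPA over adenine alone (mean of both arrays) of each measured gene in the 10 Fc receptor and ITAM genes (red), the 8 pathway lists (blue) and the 14 cell type marker lists (grey). Black bars are list medians, dashed lines mark 2-fold in either direction, and numbers in brackets are genes measured. The 10 genes (median −1.71) and the macrophage markers (−2.05) lie left of 0, and the proximal tubule markers (2.42) lie to the right.

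Markers of the cell types that carry these receptors moved with them to differing extents. Of 12 macrophage markers, 11 were lower and 0 higher (median −2.05), led by Lyz2 and the complement gene C1qc (−2.47 ± 0.079). The summed signal of all macrophage markers on the array was 88699 and 84646 with adenine alone and 14853 and 13484 with HMPA. Lyz2 made up most of it, and without Lyz2 the sums were 29860 and 27019 against 6491 and 6338. Of 9 neutrophil markers 4 were lower (median −0.87), with S100a9 at −3.40 ± 0.17 and S100a8 at −2.55 ± 0.24 (7 of 9, and −3.43 for S100a8, with Feature Extraction's own ratios). The neutrophil sum went from 7239 and 6168 to 1243 and 1161, but S100a9 made up most of it. Without S100a9 it went from 1588 and 1675 to 767 and 682. The neutrophil granule genes Elane and Ngp were not well above background in any reading. Of 5 dendritic cell markers 2 were lower (median −0.50), Clec10a (−1.91 ± 0.11) and Itgax (−1.58 ± 0.29, and −0.84 averaged over its probes). Itgax also stands in the list of lipid-laden macrophage genes. The other measured dendritic cell markers lay between −0.50 and −0.0065. The sum over all 8 on the array went from 3860 and 4047 to 1551 and 1366 (1548 and 1715 to 889 and 790 without Clec10a). The part of macrophages, neutrophils or dendritic cells in the ratios of the Fc receptor and ITAM genes was not tested.

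Markers of lymphocytes and mast cells showed smaller ratios. The medians were −0.36 over 10 T cell markers, −0.11 over 6 NK cell markers and −0.35 over 7 B and plasma cell markers. In these 3 lists 1 gene met the rule, as lower: Sdc1 (−2.02 ± 0.20), which epithelial cells also make. Other leading values were Cd8b1 (−0.91 ± 0.23), Cd8a (0.76 ± 0.28), Cd79b (−0.85 ± 0.078) and, for NK cells, Klrd1 (−0.37 ± 0.014) and Gzma (0.27 ± 0.054). With Feature Extraction's own ratios Cd8b1 (−1.59), Cd8a (1.49), Cd79b (−1.06) and Gzma (1.15) met the rule. The summed signal of T cell markers was 1501 and 1446 with adenine alone and 1161 and 1110 with HMPA. Over all 9 NK cell markers on the array it was 732 and 761 against 701 and 714. Over all 10 B and plasma cell markers on the array it was 4244 and 4123 against 2841 and 3385. The defining genes Eomes of NK cells and Cd79a and Blk of B cells were not well above background in any reading. Of 3 measured mast cell and basophil markers 0 met the rule, and their median was 0.009. Kit was −0.79 ± 0.12 (−1.08 and meeting the rule with Feature Extraction's own ratios). The sums over all 8 such genes on the array, which take in those not measured, were 664 and 694 against 580 and 566. Mcpt8, Ms4a2 and Tpsb2 were never well above background.

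Tubule markers, which mark the tissue as kidney, moved in the other direction, and fibroblast markers in the same direction as the 10 genes. All 10 proximal tubule markers were measured, and 9 were higher (median 2.42), with Kap at 3.90 ± 0.11 and Slc22a8 at 2.78 ± 0.10. Their sum went from 27505 and 38548 to 218524 and 215891. Of 10 distal nephron and collecting duct markers 6 were higher (median 1.16), led by Pvalb (3.00 ± 0.13) and Slc4a1 (2.61 ± 0.17). All 4 measured red cell markers were higher (median 3.13), with Hbb-bt at 4.62 ± 0.24 and Hba-a1 at 3.64 ± 0.59. Slc4a1 stands in both the distal nephron list and the red cell list and is counted in each, so its ratio cannot be assigned to either. Of 8 fibroblast and pericyte markers 7 were lower (median −1.83), with Col1a1 at −3.23 ± 0.17, and the sum went from 112785 and 101438 to 19465 and 15780. Of 5 fat cell markers 2 were lower, Cfd (−4.84 ± 0.012) and Adipoq (−2.18 ± 0.061). Of 6 podocyte markers 2 were lower, among them the actin-associated Synpo (−1.04 ± 0.097). Of 7 endothelial markers 0 met the rule (median −0.15), with Emcn at −0.55 ± 0.14 and Kdr at 0.51 ± 0.10. Averaged over their probes, Slc22a8 was 1.89, Hbb-bt 3.97, Col1a1 −1.86 and Synpo −0.49, which no longer met the rule. Feature Extraction's own ratios gave 4.20 for Pvalb, 3.54 for Slc4a1 and −3.16 for Adipoq. The part of tubule, red cell, fibroblast or fat cell RNA in the ratios of the Fc receptor and ITAM genes was not tested.

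The genes whose pair of log2 ratios lay nearest to the median pair of the 10 genes (−1.80 on array 1 and −1.64 on array 2) were the histone gene H2ac23 (−1.81 and −1.63), the claudin Cldn7 (−1.80 and −1.67), Sytl2 (−1.81 and −1.67), the GTPase Rhoj (−1.84 and −1.62) and Lrfn3 (−1.84 and −1.60). Their distances from that pair ran from 0.016 to 0.053. Likeness was measured over 2 arrays, and 106 of 13808 candidate genes lay within 0.25, so a place this near says little about any one gene.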

How the data were processed

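The deposited scanner files of 2 dual-colour Agilent arrays were used. Their signal and background columns are intensity values per the file headers, the former a pixel mean over the spot and the latter a local median. The deposited ratios are log10 values (red over green) that Feature Extraction had background-subtracted and dye-normalised, and the authors' value table repeats them within 0.00499, not turned for the dye swap. The headers name Feature Extraction 12.2.0.7, and the submitters' processing notes name 9.5. Each array had 43379 gene spots, of which 281 (array 1) and 297 (array 2) were marked as outliers and 0 as saturated. With HMPA 57.9% and 61.2% of spots were well above background, and with adenine alone 60.9% and 67.9%. The number of arrays limits the precision.

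Using R 4.3.3 and limma 3.58.1, background was corrected by normexp (offset 50) and ratios by loess within each array, with weight 0 for control and outlier spots. All ratios run as HMPA over adenine alone, with the spots of a probe averaged. A probe was kept (25138 of 40978) if both arrays had it well above background in one same condition, and the brightest stood for its gene. Signals per condition were taken after Aquantile scaling between arrays. Names came from a RefSeq table (GRCm38.p6) by accession for 21374 kept probes, by symbol for 1932 and by an older symbol for 8, and 1824 kept the file's name. Sequences of promoters are RefSeq's, and those of probes are the files' own. Tables and figures used Python 3.11.15. The procedure was tested on simulated data.

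The 10 genes and all lists were chosen with earlier results of these data known. Beside the 10 genes, the text names up to 4 genes per pathway list and up to 2 per marker list by size of ratio, 6 fixed pathway genes and the 5 nearest genes. A few items that these rules name are left out. Within pathway lists these had to meet the rule of size and be above background in all 4 channels, or, where none did, 2 were given as values. Alternatives were a smaller offset, no background correction, Feature Extraction's ratios, median centring, the mean over probes, other filters on dim probes and each array alone.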

Additional observations from a re-analysis of the deposited data

How the results depend on the processing

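Each ratio already compares both conditions within an array, so the pairing by array is part of every value and leaves no further block to add. The 10 genes stayed below 0 under each alternative that gave a value, and Spi1 has none when all 4 channels must be above background. Lower by the rule were 7 of them, 9 with Feature Extraction's ratios, 8 with an offset of 16, without background correction or with median centring (Syk joined), and 6 with the mean over probes (Ptprc left). Their median of −1.71 was −1.83 with offset 16, −2.06 with Feature Extraction's ratios, −1.98 with median centring, −1.49 with the mean over probes, −2.17 with all 4 channels above background, and −1.80 to −1.64 with either array left out. Genes lower over the array numbered 2461 with Feature Extraction's ratios, 1973 with median centring and 1280 to 1484 with either array left out, and genes higher 2043, 749 and 1154 to 1253. Higher genes made up 46.2% of those called, and 27.5% with median centring, which shifted the all-gene median from −0.037 to −0.22. In the pathway lists together, 4 genes were higher with Feature Extraction's ratios, 1 with the mean over probes and 3 with either array left out. Their median of −0.68 was −0.85 with offset 16, −0.81 without background correction, −1.19 with Feature Extraction's ratios, −0.93 with median centring, −0.79 with all 4 channels above background, and −0.79 to −0.67 with either array left out. No named gene changed sign while called. The causes of these shifts were not tested. Signal over background was low for Syk, Spi1, Btk and the dim Ptprc and Trem2 probes, which limits the precision of their ratios.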
